A study of Mus musculus with 46 samples.

Results

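This report is about 6 miRNAs that are often used as references for normalizing miRNA measurements, namely mmu-miR-191-5p, mmu-miR-103-3p, mmu-miR-107-3p, mmu-miR-423-3p, mmu-miR-423-5p and mmu-miR-484. They were taken by name from the 1881 mouse miRNAs on the array, and all 6 were found. Of these, 5 were among the 815 miRNAs that were detected on at least 5 of the 45 arrays analysed and were therefore tested, and mmu-miR-423-3p was not. Heart, liver and brain were taken from male C57BL6 mice with an Il1a knock-out, a background that every group shares. Pieces of each organ were left at 4 °C (4C) or at room temperature (RT) for 0, 1, 3, 6, 12, 24, 48 or 96 h, and total RNA was measured on 1-colour miRNA arrays with 1 array per tissue, temperature and time. Liver at 4C had 6 arrays, since those of 6 h and 96 h were not analysed here. The RNA integrity number (RIN), a score of how intact the ribosomal RNA is, ran from 2.2 to 9.1. Each of the 6 combinations of tissue and temperature lay on 1 slide, and by the study's methods the 3 organs stored at 1 temperature came from 1 animal, so temperature, slide and animal cannot be told apart within a tissue, and p-values measure only the spread between pieces of these animals.

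A miRNA is a short RNA that is loaded into an Argonaute protein and pairs with target transcripts mainly through its seed, which is bases 2 to 8 from its 5′ end. Hairpin precursors are usually cut in the nucleus by Drosha with DGCR8 and in the cytoplasm by Dicer, and either arm of the hairpin can give a mature miRNA (5p or 3p). Since no miRNA is made at the same level in all cells, a reference miRNA is chosen for a small spread over the samples to be compared, and an error in it passes into every value divided by it. The mature sequences of the 6 are given here, from RefSeq (GRCm38.p6), because 2 of them differ at a single base and because base composition and shared seeds bear on how each is measured. Capitals mark the seed.
mmu-miR-191-5p: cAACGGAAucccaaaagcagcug
mmu-miR-103-3p: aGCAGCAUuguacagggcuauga
mmu-miR-107-3p: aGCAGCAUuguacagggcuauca
mmu-miR-423-3p: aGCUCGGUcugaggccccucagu
mmu-miR-423-5p: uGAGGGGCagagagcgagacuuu
mmu-miR-484: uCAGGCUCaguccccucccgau

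mmu-miR-103-3p and mmu-miR-107-3p had the same seed and differed over 23 bases by G22C alone, written with the mmu-miR-103-3p base first and the position counted from the 5′ end. Among the miRNAs on the array with a RefSeq sequence (1608 of 1881), no further miRNA had their seed. The seed of mmu-miR-423-5p was shared with mmu-miR-6921-5p, and the seeds of mmu-miR-191-5p, mmu-miR-423-3p and mmu-miR-484 were shared with none. The G and C content was 47.8% in mmu-miR-103-3p and mmu-miR-107-3p, 52.2% in mmu-miR-191-5p, 56.5% in mmu-miR-423-5p, 63.6% in mmu-miR-484 and 65.2% in mmu-miR-423-3p.

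The 6 miRNAs come from 6 loci. mmu-miR-103-3p is encoded at 2 loci on the plus strand, at chr2:131288103-131288125 within Pank2 and at chr11:35782447-35782469 within Pank3. mmu-miR-107-3p lies at chr19:34820700-34820722 on the minus strand within Pank1. These host genes encode pantothenate kinases, the enzymes that begin coenzyme A synthesis, and the 2 miRNAs have been linked to Dicer levels and insulin sensitivity. mmu-miR-191-5p lies at chr9:108568325-108568347 on the plus strand within Dalrd3, and its hairpin is separated by 384 bases from that of miR-425. Both arms of miR-423 lie on the minus strand within Nsrp1, which encodes a splicing regulator, with mmu-miR-423-3p at chr11:77078086-77078108 and mmu-miR-423-5p at chr11:77078122-77078144. mmu-miR-423-5p has been studied as a circulating marker of heart failure. mmu-miR-484 lies at chr16:14159630-14159651 on the plus strand, in no protein-coding gene and 347 bases from the span of Marf1. Its precursor is known to form from a capped transcript without Drosha and DGCR8. From here on, the prefix mmu is left out.

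The values are the VSN levels of the deposited table, a log2 scale on which each array was shifted and scaled to the others and on which low signals are compressed. They are set beside the unscaled signals of the scanner files. Between 268 and 798 miRNAs were detected per array, and the signal summed over detected miRNAs was 153088 to 541770. One array, heart of 0 h at 4C, on which 215 miRNAs and 2 of the 6 references were detected, was left out, as it was in the original analysis. The tissue labels were checked against marker miRNAs on the 33 arrays with RIN over 6. The summed signal of the 3 heart markers was 22020.1 to 38536.2 in heart against at most 252.7 in brain and 2.2 in liver. The 2 liver markers summed to 6815.0 to 24948.8 in liver and at most 199.3 elsewhere, and the 3 brain markers to 13654.0 to 36789.6 in brain and at most 68.1 elsewhere. The 3 blood cell markers summed to 4998.4 to 33084.4 in heart, 269.8 to 1136.0 in liver and 390.5 to 2255.7 in brain, and the part of blood in the tissue differences of the references was not tested.

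Detection split the 6 references into 4 that were measured almost everywhere and 2 that were mostly not. miR-103-3p, miR-107-3p and miR-423-5p were detected on all 45 arrays. miR-484 was detected on 43, and the other two were liver arrays stored at 4C for 0 h and 12 h. miR-191-5p, a widely used reference, was detected on 8 of 45 arrays, with 1 of 15 in heart, 0 of 14 in liver and 7 of 16 in brain. All 8 had RIN over 6, and it was detected on 0 of the 12 arrays with lower RIN. Of those 12 arrays, 8 were liver, 2 heart and 2 brain. At RIN over 6 it was detected on 0 of 6 liver, 1 of 13 heart and 7 of 14 brain arrays, so tissue and RIN are mixed in this count. miR-423-3p was detected on 3 arrays, which were heart of 1 h at 4C and liver of 48 h and 96 h at RT. The 2 arms of miR-423 thus differed, with the 5p arm detected on 45 arrays and the 3p arm on 3. For miR-191 the 3p arm was detected on 41 arrays and the 5p arm on 8, and the neighbour miR-425-5p was detected on 43. Of the remaining arms, miR-103-1-5p was detected on 3 arrays and miR-107-5p and miR-425-3p on 0. All spots of the 46 arrays were below saturation.

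The way probes were summed touched part of the references. Each of the 4 measured references has 2 probes of 15 spots, and miR-191-5p and miR-423-3p have 4 probes of 7 to 8 spots. In the scanner files the total signal of a detected miRNA left out probes on part of the arrays. With a tolerance of 1%, it was below the sum over all probes for miR-484 on 10 of 43 arrays (9 in liver and 1 in heart) and for miR-423-5p on 4 of 45, all in liver. It was never below that sum for miR-103-3p and miR-107-3p. For miR-191-5p it was below it on all 8 arrays with a detection and for miR-423-3p on all 3. Over all miRNAs this was so in 25.3% of 22221 detections. On these arrays the total of miR-484 was 57.3% to 67.9% of the sum and that of miR-423-5p 64.5% to 71.2%, so the VSN levels, which were made from the totals, are lower there by construction. Unscaled values of the 4 measured references below are sums over all probes unless stated.

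**Figure D1:**
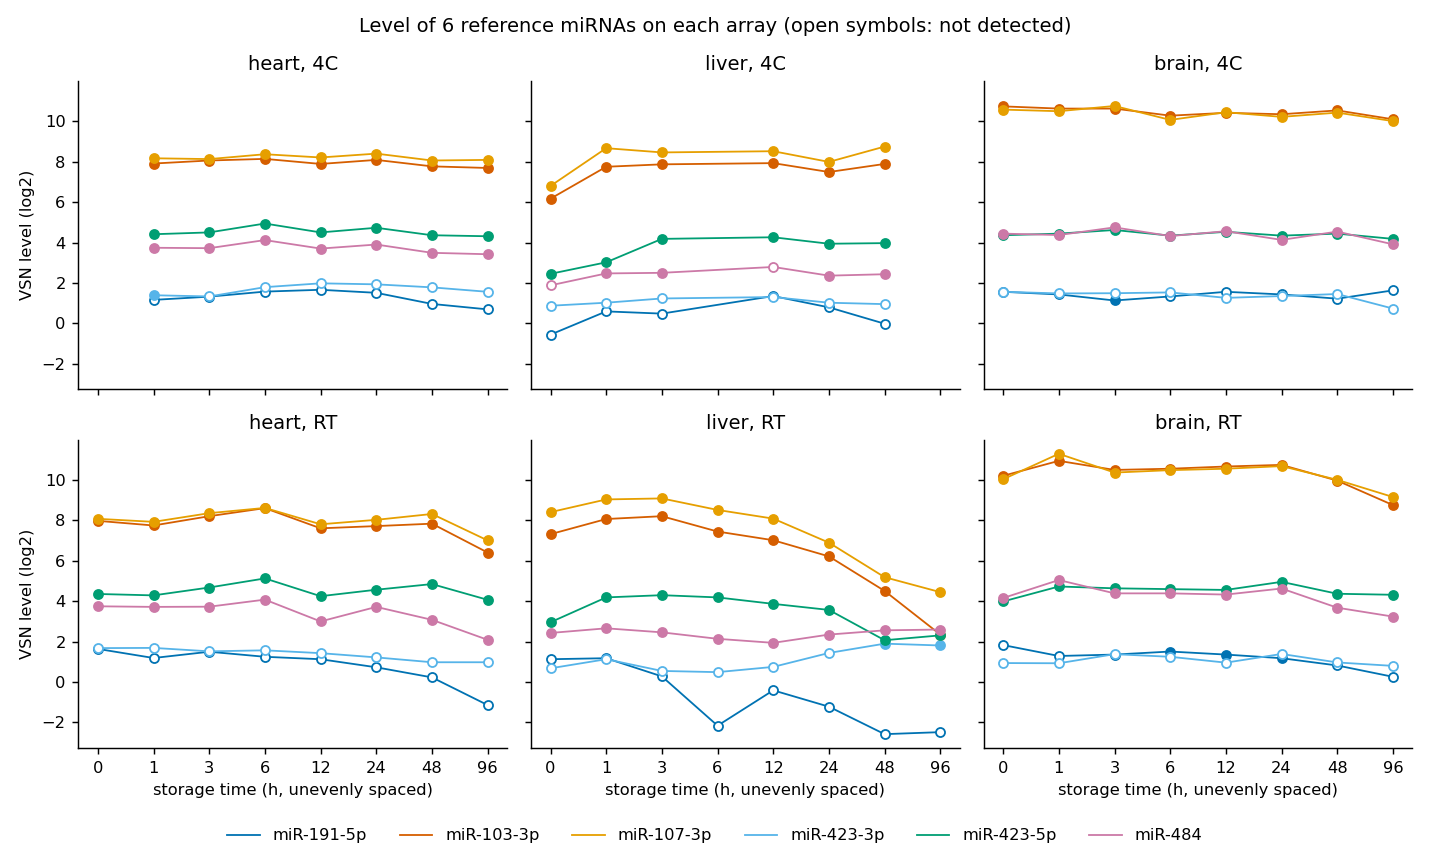
VSN level (log2) of the 6 references on each of the 45 arrays, by tissue (columns), storage temperature (rows) and storage time in hours (x axis, unevenly spaced). Each point is 1 array and open symbols mark arrays on which the miRNA was not detected. miR-103-3p and miR-107-3p are above 10 in brain at RIN over 6, and in liver at RT miR-103-3p goes from 8.21 at 3 h to 2.35 at 96 h.

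None of the measured references had a common level in the 3 tissues under the deposited scaling. On the 33 arrays with RIN over 6 (13 heart, 6 liver, 14 brain), 3 of the 5 tested members were higher in brain than in heart, 4 were lower in liver than in heart and 5 were higher in brain than in liver. Over all 815 miRNAs, 69.1% were called between brain and heart (median difference 0.44), 54.6% between liver and heart (-0.60) and 72.5% between brain and liver (1.11), with limma and Benjamini-Hochberg adjusted p below 0.05 in either direction. In the members' directions these shares were 47.1% higher in brain than in heart, 44.9% lower in liver than in heart and 57.9% higher in brain than in liver. Calls among the members thus stood beside a background in which most miRNAs differed between tissues. With bulk tissue, fewer cells of a type and less miRNA per cell cannot be told apart.

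The VSN level of miR-103-3p was 7.61, 7.91 and 8.61 in heart (lowest, median and highest of 13), 6.17, 7.62 and 7.93 in liver (of 6) and 10.10, 10.55 and 10.95 in brain (of 14). Every brain array was above every heart and liver array, and heart and liver overlapped. The mean in brain was 2.57 ± 0.15 (SE) above heart, 5.93-fold (limma, adjusted p = 4.56e-17), and 3.10 ± 0.19 above liver (adjusted p = 1.29e-16). Liver was 0.54 below heart on this scale (difference -0.54 ± 0.19, adjusted p = 0.018). That direction is not settled, since the difference was 0.159 with 75th percentile scaling (adjusted p = 0.28), 0.587 with quantile normalization (8.83e-05) and 0.488 with normexp (4.18e-04), -0.295 (0.119) without the liver array of 0 h at 4C, and -0.463 (0.0785) with temperature and time as a block that pairs the tissues.

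miR-107-3p had the same order in brain. Its level was 7.81, 8.13 and 8.62 in heart, 6.80, 8.44 and 8.67 in liver and 10.01, 10.47 and 11.30 in brain (lowest, median and highest). Brain again did not overlap the other tissues and heart and liver lay within the same range. Brain was 2.29 ± 0.16 above heart (limma, adjusted p = 8.52e-15) and 2.32 ± 0.20 above liver (adjusted p = 2.44e-12). The difference between liver and heart was -0.03 ± 0.20 (adjusted p = 0.918), with an interval of 2 SE from -0.438 to 0.38. It was -0.533 with no scaling (adjusted p = 0.00744) and 0.67, 0.895 and 0.811 with 75th percentile scaling, quantile normalization and normexp (all 3 past the test).

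miR-423-5p had much the same level in heart and brain under the deposited scaling, but not with percentile scaling over all miRNAs (-0.736, adjusted p = 1.46e-04), quantile normalization or normexp. The level was 4.25, 4.50 and 5.13 in heart, 2.45, 3.48 and 4.26 in liver and 3.99, 4.48 and 4.96 in brain (lowest, median and highest). The heart and brain ranges overlapped nearly whole, and of the liver range only the top reached them. Brain minus heart was -0.06 ± 0.16 (limma, adjusted p = 0.747; 2 SE interval -0.385 to 0.266), and this became -1.11 with quantile normalization (adjusted p = 1.65e-07) and -0.355 with normexp (2.34e-11). Liver was 1.08 below heart (difference -1.08 ± 0.20, adjusted p = 4.26e-05). Brain was 1.02 ± 0.20 above liver (adjusted p = 3.8e-05), a difference of -0.661 with quantile normalization (0.00314) and -0.282 with normexp (2.75e-07). With the sums over all probes and 75th percentile scaling, liver minus heart was -0.238 (adjusted p = 0.132) and brain minus liver 0.144 (0.319).

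miR-484 differed among all 3 tissues under the deposited scaling. It was at 3.00, 3.72 and 4.12 in heart, 1.88, 2.45 and 2.79 in liver and 3.91, 4.39 and 5.05 in brain (lowest, median and highest). Liver did not overlap the other tissues, while the top of heart reached the bottom of brain. Brain was 0.73 ± 0.13 above heart (limma, adjusted p = 6.68e-06), a difference of -0.367 with quantile normalization (0.0568) and -0.108 with normexp (0.0109). Liver was 1.30 below heart (difference -1.30 ± 0.16, adjusted p = 2.27e-08), and brain was 2.02 ± 0.16 above liver (1.63e-13). These 2 directions held under each scaling tried, although brain minus liver with normexp was 0.097 (adjusted p = 0.0633).

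The 2 rarely detected references have no fold change that these arrays can give. The mean VSN level of miR-191-5p was 1.25 ± 0.32 (SD, n = 13) in heart, 0.63 ± 0.67 (n = 6) in liver and 1.41 ± 0.19 (n = 14) in brain. The lowest level that counted as detected on the liver arrays was above the mean of heart or brain, so no bound above 1-fold could be set. Its limma difference of liver against heart (-0.62, adjusted p = 0.00866) and of brain against liver (0.78, adjusted p = 6.02e-04) compares values that were not above background on any liver array. Liver minus heart was -0.377 (adjusted p = 0.0682) without the liver array of 0 h at 4C. miR-423-3p had means of 1.60 ± 0.23 in heart, 1.02 ± 0.23 in liver and 1.27 ± 0.27 in brain, with a detection on 1 of 13 heart arrays and 0 of 14 brain arrays. In a fit over the 938 miRNAs detected on at least 3 arrays, its brain minus heart difference was -0.339 (adjusted p = 0.00833), again between values almost all below detection.

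With storage at 4C, limma called 0 of the 5 tested members, and 0 of 5 at an unadjusted p below 0.05. miR-103-3p stayed between 7.69 and 8.14 on the 7 heart arrays and between 10.10 and 10.74 on the 8 brain arrays. In liver it was 6.17, 7.75, 7.87, 7.93, 7.49 and 7.89 at 0, 1, 3, 12, 24 and 48 h, so that the 0 h array lay apart below the others. Fitted over 96 h within tissues, with the liver arrays ending at 48 h, the change was -0.22 for miR-103-3p (limma, adjusted p = 0.72), -0.13 for miR-107-3p (0.865), -0.28 for miR-191-5p (0.642), -0.07 for miR-423-5p (0.936) and -0.40 for miR-484 (0.226). The background was also low, at 12.0% of 815 miRNAs. With 75th percentile scaling 3 members passed the test, each with a negative slope per hour, which was -0.00438 for miR-103-3p (adjusted p = 0.0397), -0.00343 for miR-107-3p (0.041) and -0.00658 for miR-484 (0.0218).

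The VSN level of all 5 tested members fell with storage at RT, though for miR-423-5p and miR-484 the unscaled slopes had the other sign, against a background in which 78.3% of 815 miRNAs were called (334 higher and 304 lower with time, the latter 37.3%). Fitted over 96 h within tissues, miR-103-3p fell by 3.01 (limma, adjusted p = 1.76e-05), miR-107-3p by 2.41 (1.51e-04), miR-191-5p by 2.36 (1.08e-04), miR-484 by 0.91 (0.0092) and miR-423-5p by 0.81 (0.0379). The unscaled slopes per hour were 0.00683 for miR-423-5p (adjusted p = 0.155) and 0.00355 for miR-484 (0.347), while those of miR-103-3p (-0.0164, adjusted p = 0.00921) and miR-107-3p (-0.00974, 0.102) stayed negative. Leaving the arrays unscaled moved the median slope of all miRNAs from 0.00296 to 0.0162, so that all 5 were below the median on both scales. The call of miR-423-5p was lost without any 1 of 5 arrays, with adjusted p = 0.0576 without heart RT 96 h, 0.0552, 0.054, 0.0551 and 0.183 without liver RT 1 h, 3 h, 48 h and 96 h. That of miR-484 was lost without heart RT 96 h (0.1) or brain RT 96 h (0.0526). miR-191-5p was not detected on most of these arrays, and its call was not made with no scaling, with either percentile scaling or with quantile normalization (slopes -0.00244 to -0.00556 per hour). Its liver values were all equal with no scaling and with quantile normalization, because signals under 1 were set to 1.

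The difference between the temperatures was tested as well, and 52.6% of 815 miRNAs had a time slope that differed between RT and 4C. Of the 5 members, 3 did, each with the more negative slope at RT, as had 28.0% of all. The difference over 96 h was -2.79 ± 0.61 for miR-103-3p (limma, adjusted p = 7.55e-04), -2.28 ± 0.62 for miR-107-3p (0.00385) and -2.08 ± 0.59 for miR-191-5p (0.00496). It was -0.74 ± 0.48 for miR-423-5p (adjusted p = 0.182) and -0.50 ± 0.37 for miR-484 (0.245), and without liver RT 96 h the slope difference of miR-484 per hour was -0.00949 (0.0363). miR-191-5p was detected on 5 of 24 arrays at RT and 3 of 21 at 4C, so its slope difference mostly compares values at background.

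For miR-103-3p the drop in VSN level at RT lay in the 96 h array in heart and in the 48 h and 96 h arrays in brain. In heart miR-103-3p was 7.98, 7.75, 8.21, 8.61, 7.61, 7.72, 7.84 and 6.41 from 0 to 96 h. In brain it was 10.21, 10.95, 10.50, 10.56, 10.67, 10.75, 9.97 and 8.76. Until 24 h the values lay between 7.61 and 8.61 in heart and between 10.21 and 10.95 in brain. The array of 96 h, with a RIN of 2.2 in heart and 3.3 in brain, was the lowest in each. miR-423-5p over the same times was 4.36, 4.29, 4.68, 5.13, 4.25, 4.57, 4.85 and 4.07 in heart and 3.99, 4.73, 4.64, 4.60, 4.56, 4.96, 4.37 and 4.32 in brain, so that its last brain array was inside the range of the earlier ones. miR-484 went from 3.75 to 2.09 in heart and from 4.16 to 3.24 in brain between 0 and 96 h. The unscaled signals differed from these levels. That of miR-103-3p at 0, 48 and 96 h was 208.5, 384.9 and 174.9 in heart and 851.9, 1401.6 and 936.1 in brain. Between 0 and 96 h miR-484 went from 10.3 to 7.6 in heart and from 12.2 to 19.3 in brain. miR-423-5p went from 16.2 to 33.6 in heart and from 10.7 to 42.0 in brain.

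In liver at RT the level of miR-103-3p spanned 5.86 log2 units. From 0 to 96 h, with RIN going from 7.1 to 2.3, miR-103-3p was 7.32, 8.07, 8.21, 7.45, 7.02, 6.22, 4.51 and 2.35. miR-107-3p was 8.41, 9.04, 9.09, 8.52, 8.09, 6.90, 5.19 and 4.45. Both were highest at 3 h and lower at each later time. miR-423-5p was 2.96, 4.19, 4.30, 4.19, 3.87, 3.57, 2.07 and 2.31, and miR-484 was 2.43, 2.66, 2.46, 2.14, 1.94, 2.35, 2.56 and 2.60. The 48 h and 96 h arrays of miR-423-5p were its lowest ones, whereas miR-484 kept within 0.72 on the arrays of RIN up to 6 in liver. miR-423-3p, not detected before 48 h, was at 1.90 and 1.81 on the last 2 arrays against 0.49 to 1.44 before.

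The unscaled signals of these liver arrays differed from the VSN levels for miR-423-5p and miR-484. The summed probe signal of miR-103-3p was 79.6, 185.3, 229.1, 221.5, 192.0, 134.2, 34.2 and 11.1, and that of miR-107-3p was 170.3, 364.1, 421.6, 467.2, 405.4, 216.1, 55.7 and 52.2. These 2 had a peak at 3 h or 6 h and their lowest values at 96 h on the unscaled scale too. miR-423-5p gave 5.1, 11.7, 14.4, 22.2, 20.2, 20.5, 7.8 and 10.7, and miR-484 gave 3.1, 5.3, 5.4, 7.0, 7.2, 8.2, 8.1 and 13.4. The unscaled signal of miR-484 was thus highest at 96 h, and that of miR-423-5p was higher at 96 h than at 0 h, although its VSN level was lower (2.31 against 2.96).

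**Figure D2:**
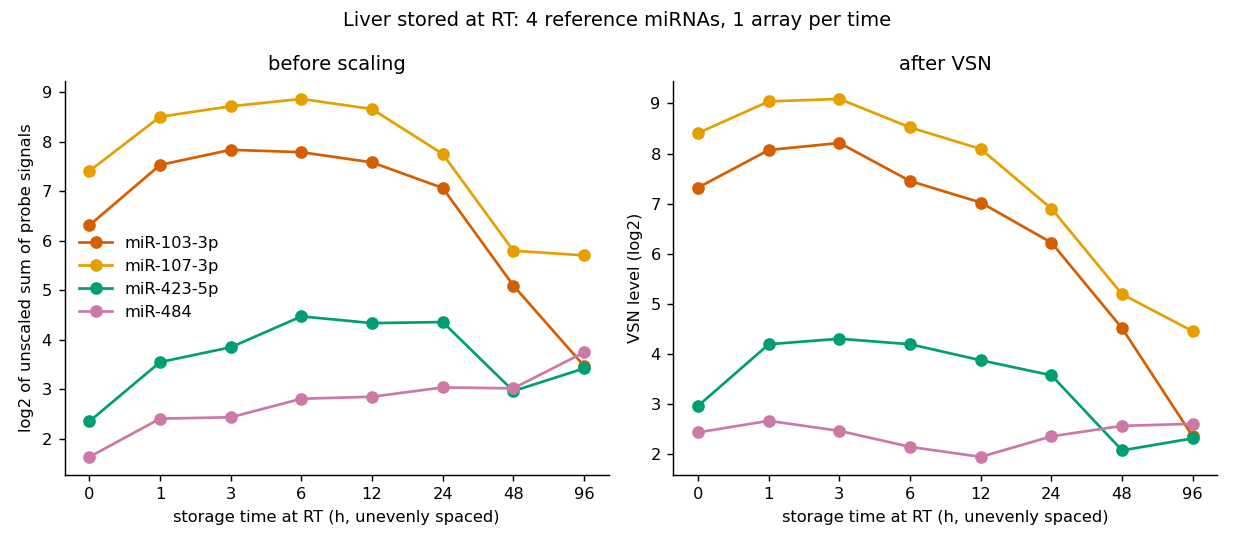
Liver stored at RT, 1 array per time, for the 4 measured references. The left panel shows the log2 of the unscaled sum of probe signals and the right panel the VSN level (log2), both against storage time in hours, unevenly spaced. miR-103-3p and miR-107-3p each have their own lowest value at 96 h in both panels. Before scaling miR-484 has its own highest value at 96 h, and after VSN it is near its starting level (2.43 at 0 h and 2.60 at 96 h).

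Against RIN itself, 4 of the 5 tested members had a higher VSN level at higher RIN within tissues, none of them with no scaling, beside 81.1% of 815 miRNAs called in either direction (287 higher, which is 35.2%, and 374 lower). Per RIN unit the slope was 0.254 ± 0.0643 for miR-103-3p (limma, adjusted p = 5.05e-04), 0.182 ± 0.0593 for miR-107-3p (0.00558), 0.335 ± 0.0447 for miR-191-5p (7.7e-09) and 0.109 ± 0.0296 for miR-484 (0.0011). That of miR-423-5p was 0.0316 ± 0.0387 (0.441), with an interval of 2 SE from -0.0459 to 0.109. The value of miR-191-5p, detected on 8 arrays, was 0.0228 (0.389) with no scaling, 0.0535 (0.084) and 0.0518 (0.0633) with percentile scaling over detected or all miRNAs and 0.0529 (0.0908) with quantile normalization, so that among the scalings only VSN and normexp gave its call. Its liver values were all equal with no scaling and with quantile normalization, because signals under 1 were set to 1. With no scaling the slope was 0.045 for miR-103-3p (adjusted p = 0.512), -0.029 for miR-107-3p (0.646), -0.178 for miR-423-5p (6.39e-06) and -0.115 for miR-484 (0.00223), and the median slope of all miRNAs moved from -0.0342 to -0.223. Relative to that median over the 815 miRNAs all 5 slopes were positive on both scales, with 0.288 and 0.268 for miR-103-3p, 0.217 and 0.194 for miR-107-3p, 0.0658 and 0.0452 for miR-423-5p and 0.143 and 0.108 for miR-484 (VSN, then unscaled). The median itself depended on the filter of detection. With VSN it was 0.0502 over the miRNAs detected on at least 10 arrays and 0.055 with no filter. Both lie above the VSN slope of miR-423-5p and below the other slopes. The slope of miR-423-5p passed the test with both percentile scalings, quantile normalization and normexp (0.0587 to 0.202). On the 33 arrays with RIN over 6 alone, the 5 slopes were -0.252 to -0.00914 and none passed the test.

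Tissue by tissue, 48.5% of 815 miRNAs were called with RIN in heart, 70.4% in liver and 40.9% in brain, of which those higher at higher RIN made up 14.4%, 24.3% and 13.3% of the 815. In heart the slope was 0.228 ± 0.0461 for miR-484 (limma, adjusted p = 9.97e-05) and 0.351 ± 0.0835 for miR-191-5p (5.96e-04), and miR-103-3p (0.214), miR-107-3p (0.384) and miR-423-5p (0.739) did not pass. Without heart RT 96 h, miR-484 gave 0.163 (adjusted p = 0.162) and miR-191-5p 0.284 (0.183). With no scaling these 2 heart slopes were 0.0399 (0.581) and 0.054 (0.303), and that of miR-191-5p was 0.0624 to 0.111 with the percentile scalings and quantile normalization, past the test in none. In liver the slope was 0.278 ± 0.0895 for miR-103-3p (adjusted p = 0.00609), 0.205 ± 0.0826 for miR-107-3p (0.0264) and 0.367 ± 0.0612 for miR-191-5p (1.59e-06), which was detected on 0 of 14 liver arrays. The signal of miR-191-5p was at most 0.7 on every liver array, and signals under 1 were set to 1 before log2. With no scaling and with quantile normalization its liver values were thus all equal, and a slope of 0 was fixed in advance. With 75th percentile scaling its liver slope was 0.0209 (adjusted p = 0.672). With no scaling that of miR-103-3p was 0.0723 (0.475) and that of miR-107-3p -0.00574 (1.0). In liver the slide is also the temperature and the animal, and with the slide as a block the values of these 2 were 0.254 (0.103) and 0.212 (0.139). Without liver RT 96 h that of miR-103-3p was 0.133 (0.084), and that of miR-107-3p was 0.0976 (0.247) without this array, 0.129 (0.159) without liver RT 48 h and -0.0241 (0.756) without both. In brain miR-484 alone of the 5 passed (0.226 ± 0.0584, adjusted p = 0.00246), and its slope was 0.199 (0.217) without brain RT 96 h and 0.00705 (0.971) with no scaling.

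The slope differed between tissues for 5.52% of 815 miRNAs and, among the members, for miR-484 only (range of the 3 slopes 0.222, limma, adjusted p = 0.0133). In liver its slope was 0.00592 ± 0.0338, against 0.228 in heart and 0.226 in brain. Liver minus heart was -0.222 ± 0.0572 (adjusted p = 0.0219) and liver minus brain -0.22 ± 0.0675 (0.0664). The call was lost with the slide as a block (adjusted p = 0.12), without heart RT 96 h (0.0994) and without brain RT 96 h (0.0606), and the unscaled slope of miR-484 in liver was -0.239 (2.9e-07).

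Low-RIN liver was also set against high-RIN liver, 8 arrays with RIN of 6 or lower against 6 above, with the exact Wilcoxon-Mann-Whitney test of the study's methods. It called 27.7% of 815 miRNAs (202 higher and 24 lower in low-RIN liver) and 0 of the 5 members after Benjamini-Hochberg adjustment, with 1 of the 5 at an unadjusted p below 0.05 (miR-191-5p, exact p = 0.0426). With limma in place of the rank test it was also 0 of 5, and 1 unadjusted. miR-103-3p was at 2.35, 7.24 and 8.21 on the low-RIN arrays (lowest, median and highest) and at 6.17, 7.62 and 7.93 on the high-RIN ones. The low-RIN range enclosed the high-RIN range. The mean difference was -0.96 for miR-103-3p (exact p = 0.755, adjusted 0.89), -0.64 for miR-107-3p (0.852, adjusted 0.941), 0.09 for miR-423-5p (0.852, adjusted 0.941) and -0.01 for miR-484 (0.95, adjusted 0.984). miR-103-3p was called with 75th percentile scaling (-1.58, adjusted p = 0.0187), quantile normalization (-2.19, 0.0457) and normexp (-1.44, 0.0247), and miR-484 with no scaling, in the other direction (1.18, 0.0132).

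As a measure of stability, the SD of the VSN level within tissues over the 45 arrays was 0.415 for miR-484, 0.493 for miR-423-5p, 0.869 for miR-107-3p and 1.00 for miR-103-3p. The median over the miRNAs detected on all 45 arrays was 0.935. Of these miRNAs, 2 of 180 had a lower SD than miR-484, 6 of 179 than miR-423-5p, 63 of 179 than miR-107-3p and 110 of 179 than miR-103-3p. On the 33 arrays with RIN over 6 the 4 were much alike on this scale, with SDs of 0.285, 0.385, 0.384 and 0.353 in the same order against a median of 0.475. Over all 45 arrays with the tissue differences left in, the SD was 0.887, 0.665, 1.45 and 1.79, so miR-107-3p and miR-103-3p spread most. At RIN over 6 the order depended on the scaling. With no scaling these SDs within tissues were 0.347, 0.464, 0.359 and 0.341, in the same order of miRNAs. With 75th percentile scaling they were 0.262, 0.311, 0.165 and 0.212, and with quantile normalization 0.413, 0.376, 0.151 and 0.223. With sums over all probes and 75th percentile scaling, miR-484 had 0.213 and miR-423-5p 0.24. The SDs of miR-191-5p (0.893 within tissues) and miR-423-3p (0.34) mostly describe values at background. miR-484 and miR-423-5p were dim, with unscaled totals of 1.8 to 29.6 and 3.3 to 47.0, and VSN compresses low signals. In liver alone the SD of miR-484 was 0.256 with VSN and 0.863 with no scaling of the totals.

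**Figure D3:**
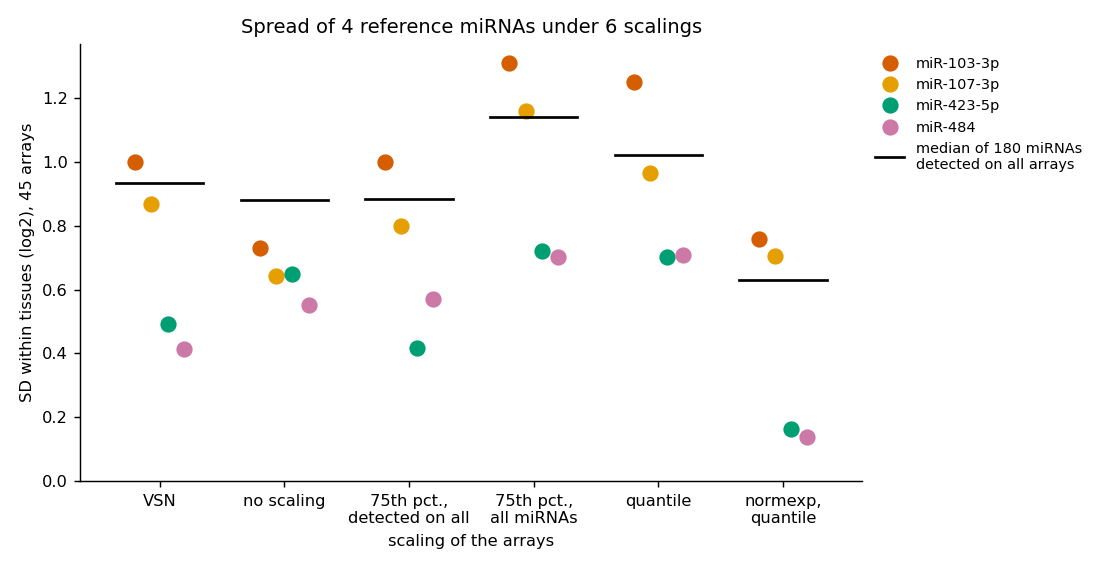
SD within tissues (log2) over 45 arrays of the 4 measured references under 6 scalings of the arrays. Points are the references and bars the median SD of the 180 miRNAs detected on all arrays. miR-423-5p and miR-484 have the lowest SDs of the 4 with VSN (0.493 and 0.415), while with no scaling the 4 lie between 0.552 and 0.729. With normexp the SDs of dim miRNAs are compressed by its offset of 50.

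The order depended on the scaling. With no scaling of the totals the SD within tissues was 0.552 for miR-484, 0.644 for miR-107-3p, 0.65 for miR-423-5p and 0.729 for miR-103-3p, and with 75th percentile scaling it was 0.571, 0.798, 0.416 and 1.00. Over all 45 arrays, miR-484 or miR-423-5p had the lowest SD of the 4 and miR-103-3p the highest with VSN, with no scaling, with both percentile scalings and with quantile normalization. Their low SDs with normexp (0.138 and 0.165) are compressed by the offset, and the mostly undetected miR-191-5p and miR-423-3p had lower ones still (0.0446 and 0.0292). With sums over all probes the SD of miR-423-5p was 0.553 with no scaling and 0.389 with 75th percentile scaling, where 1 of 179 miRNAs was lower, and that of miR-484 was 0.48 and 0.518. A second measure needs no scaling, the SD of the log2 difference between a miRNA and each other one, averaged over the 180 miRNAs detected on all 45 arrays. By it miR-423-5p ranked 1 of 180 with a mean SD of 1.32, followed by miR-3620-3p at 1.39. miR-107-3p ranked 114 (1.75) and miR-103-3p 152 (2.0), both above the median SD of 1.65. On the arrays with RIN over 6 their ranks were 3, 147 and 158. With sums over all probes, miR-423-5p ranked 1 both over all arrays (1.28) and at RIN over 6 (0.822).

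Within an array, the difference between the log2 signals of 2 references does not depend on a factor common to the array. At RIN over 6 these differences were tight. The SD of miR-103-3p minus miR-107-3p was 0.115 in heart, 0.232 in liver and 0.146 in brain, and that of miR-103-3p minus miR-423-5p was 0.132, 0.268 and 0.171. The largest of the 18 was 0.463, for miR-107-3p minus miR-423-5p in liver. Summing all probes mattered in liver, where with the deposited totals the last value was 0.742 and that of miR-103-3p minus miR-423-5p 0.531.

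**Figure D4:**
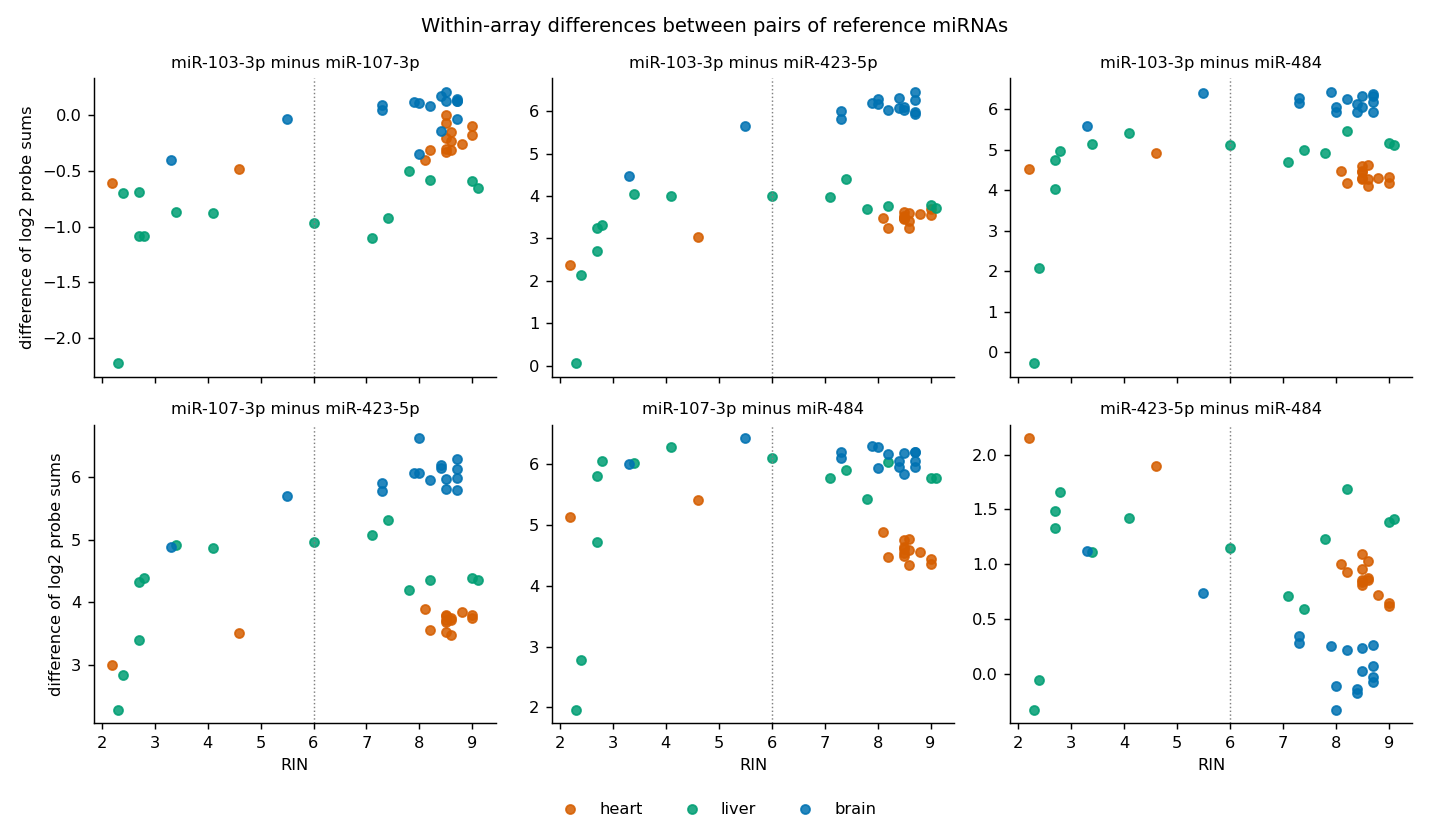
Within-array differences between the log2 sums of probe signals (y axis) of each pair of the 4 measured references, against RIN (x axis), for 45 arrays coloured by tissue. The dotted line marks RIN 6. Above it each tissue forms a narrow band. Below it some liver arrays stay within the liver band and others leave it, with miR-103-3p minus miR-423-5p down to 0.05. For this pair the arrays of 48 h and 96 h at RT also leave their bands, at 3.04 and 2.38 in heart and at 5.66 and 4.48 in brain.

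Late in storage at RT the references parted from each other. In liver at RT, miR-103-3p minus miR-423-5p was 3.97, 3.99, 3.99, 3.32, 3.25, 2.71, 2.13 and 0.05 from 0 to 96 h. miR-103-3p minus miR-484 was 4.69, 5.13, 5.41, 4.98, 4.74, 4.04, 2.08 and -0.28. Both differences were steady or higher until 3 h and lower at each time after 3 h, and at 96 h miR-103-3p was near miR-423-5p and miR-484 in summed signal. miR-423-5p minus miR-484 was 0.71, 1.15, 1.42, 1.66, 1.49, 1.33, -0.06 and -0.33, and thus moved up and then down. In heart at RT the 0 h and 96 h values were 3.69 and 2.38 for miR-103-3p minus miR-423-5p and 0.65 and 2.15 for miR-423-5p minus miR-484. In brain they were 6.31 and 4.48, and -0.18 and 1.12. In heart and brain, then, miR-484 was lower against miR-423-5p at 96 h than at 0 h, and in liver it was higher.

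miR-103-3p and miR-107-3p, which differ by G22C, had the lowest difference at RT on the 96 h array in each tissue. Their difference at RT went from -0.10 to -0.61 in heart, from 0.17 to -0.40 in brain and from -1.10 to -2.23 in liver between 0 and 96 h. The difference was also -0.35 in brain at 1 h, -0.48 in heart at 48 h and -1.08 in liver at 6 h and 12 h. It was -0.69 at 24 h and -0.70 at 48 h in liver, so the low value there is that of 1 array. Over the 33 arrays of RIN over 6 its mean was -0.22 in heart, -0.72 in liver and 0.06 in brain. How far the probes of each also take up the other miRNA was not tested.

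The choice of reference set the direction of change for tissue miRNAs at RT. miR-122-5p, the main miRNA of hepatocytes, changed in liver between 0 and 96 h by -1.25 in unscaled log2 signal and by -3.53 in VSN level. Relative to miR-103-3p the same change was 1.60 and relative to miR-107-3p 0.46, while relative to miR-423-5p it was -2.32 and relative to miR-484 -3.37. It was therefore upward against 2 of the references and downward against the other two. For miR-1a-3p, a heart muscle miRNA, the change in heart was 0.61, 0.10, -0.70 and 0.80 relative to the 4 in the same order, against -0.96 in VSN level. For miR-124-3p, a neuronal miRNA, it was 1.14, 0.56, -0.69 and 0.61 in brain, against -0.32 in VSN level. Each of these changes is the difference between 2 arrays and has no test.

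The 2 probes of a reference gave a check within each array. At RIN over 6 the log2 ratio of the brighter to the dimmer probe was 0.66 ± 0.16 (SD, n = 33) for miR-103-3p, 1.06 ± 0.08 for miR-107-3p, 0.74 ± 0.14 for miR-423-5p and 0.89 ± 0.17 for miR-484. On the 12 arrays of lower RIN it was 0.86 ± 0.23, 1.15 ± 0.15 and 0.92 ± 0.12 for the first 3 and 0.56 ± 0.44 for miR-484. In liver at RT the ratio for miR-484 was 1.01, 0.93, 0.75, 0.91, 0.42, 0.04, -0.01 and -0.27 from 0 to 96 h. The signal of its brighter probe went from 2.1 to 6.1 and that of its dimmer probe from 1.0 to 7.3, so that the latter was the brighter one at 96 h. The unscaled increase of miR-484 in low-RIN liver thus was not the same in its probes.

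**Figure D5:**
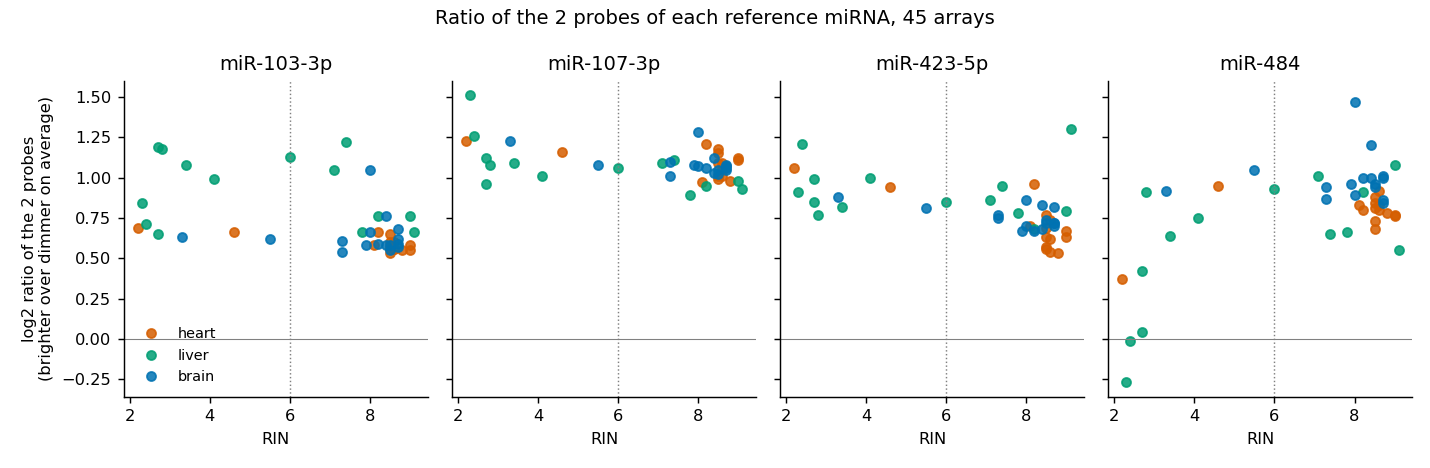
Log2 ratio of the 2 probes of each measured reference (y axis, brighter over dimmer on average) against RIN (x axis), for 45 arrays coloured by tissue. The dotted line marks RIN 6. The ratio of miR-484 spreads from -0.27 to 1.05 at RIN up to 6 and from 0.55 to 1.47 above it, and those of the other 3 stay above 0.

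A list of 14 other miRNAs in use as references was described on the same scale. With storage at RT, 13 of the 14 had a lower VSN level (median slope -0.022 per hour, against 0.00296 over all 815 miRNAs, of which 37.3% were lower), a count that was 2 lower and 1 higher with no scaling, and miR-320-3p did not pass (-0.00283, adjusted p = 0.44). With RIN within tissues 11 of 14 were higher at higher RIN (median slope 0.17 against -0.0342, and 35.2% of all miRNAs higher), while with no scaling 0 were higher and 1 was lower (median -0.0336). At 4C limma called 0 of 14, and 0 at an unadjusted p below 0.05, beside 0.982% of all miRNAs lower, but 5 were lower with 75th percentile scaling and 5 with quantile normalization. Between tissues 12 of 14 were lower in liver than in heart (5 lower and 2 higher with quantile normalization), beside 44.9% of all, and 6 were higher and 6 lower in brain than in heart, beside 47.1% and 22.0% of all. Of the 14, 11 were detected on all 45 arrays, and the SDs of all 14 within tissues ran from 0.451 (miR-320-3p) to 1.04 (let-7a-5p) with a median of 0.856. The SDs of miR-484 and miR-423-5p were 0.415 and 0.493 on the same scale.

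Of the other arms and the neighbour of miR-191, 2 were tested, of which miR-425-5p is also among the 14. miR-425-5p fell with storage at RT (limma slope -0.0211 per hour, adjusted p = 3.83e-04) and was higher at higher RIN (0.172, adjusted p = 0.00473; -0.0336 and 0.606 with no scaling), and at 4C its slope was -0.00352 (0.592). miR-191-3p, the arm of miR-191 detected on 41 arrays, had a slope of -0.00255 at RT (adjusted p = 0.445), which was 0.0147 with no scaling (0.00133) but -0.013 (0.00556), -0.0129 (0.0167) and -0.00223 (0.00129) with percentile scaling over all miRNAs, quantile normalization and normexp, against -0.0245 (1.08e-04) for the 5p arm that was detected on 8. At 4C miR-191-3p fell (slope -0.00836, adjusted p = 0.0324), and with normexp this call was not made (-0.000776, 0.327).

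The miRNAs whose pattern over the 45 arrays was most like that of each member, by Pearson's r of VSN levels among the 373 detected on at least 30 arrays, are given as a description, with arrays that share tissue and animal. For miR-103-3p they were miR-361-5p (r = 0.992) and miR-107-3p (0.981), and for miR-107-3p miR-340-5p (0.987) and miR-361-5p (0.985). For miR-423-5p they were miR-210-3p (0.919) and miR-16-5p (0.91), the latter itself in use as a reference. For miR-484 they were miR-181a-5p (0.924) and miR-135a-5p (0.907). The rarely detected members were less like any other, with miR-3069-3p (0.863) for miR-191-5p and miR-6997-5p (0.642) for miR-423-3p.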

How the data were processed

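RNA was isolated with the miRNeasy kit and hybridised to Agilent 1-colour mouse miRNA arrays, and the intensities of spots, probes and miRNAs were deposited as scanner output of Agilent Feature Extraction 10.10.1.1. The authors normalized the total signal of each miRNA by VSN and deposited log2 values for 46 arrays. Each array's values were checked to be an asinh function of its signals. Levels in the text are these log2 values.

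On 45 arrays, miRNAs detected on at least 5 were tested with limma 3.58.1 (R 4.3.3) and Benjamini-Hochberg adjustment over 815 miRNAs, called below 0.05. The fits were the slope of RIN with tissue as a block or a slope per tissue, the slope of hours at each temperature, and tissues at RIN over 6 with the slide as a random block (consensus correlation 0.0203). Low-RIN and high-RIN liver were compared by the exact Wilcoxon-Mann-Whitney test (3003 splits). The fits were tested on simulated data. No depth applies to arrays, whose number limits the precision.

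Alternatives were no scaling, 75th percentile scaling over the 180 miRNAs detected on all arrays or over all, quantile normalization, normexp with an offset of 50 on the median spot signals, other filters, blocks and sets of arrays, and Bonferroni adjustment. Signals under 1 were set to 1 before log2. Leaving out each array, leaving out liver RT 48 h and 96 h, summing all probes of a miRNA, and temperature or temperature and time as a block between tissues were chosen after seeing the data. The study's methods give 14 h where the labels give 12 h.

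The rule for named miRNAs was the 6 members, their other arms and miR-425, 14 other references as a list, the 2 miRNAs most alike to each member, and tissue markers. The members and lists were chosen with earlier results of these data known. Members were matched by name to RefSeq sequences.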

Additional observations from a re-analysis of the deposited data

Results flagged for a closer look

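Among the 36 groups of 1 member on 1 slide, 4 had an array far from the others for its group size, where chance gives about 1 in 20. Of these, 3 were of miR-103-3p, with 8.76 in brain at 96 h and RT (gap of 0.554 of the range of 8 arrays), 6.41 in heart at 96 h and RT (0.546 of 8) and 6.17 in liver at 0 h and 4C (0.749 of 6). The other was miR-423-3p in brain at 96 h and 4C, at 0.73 (0.636 of 8), where it was not detected. The first and second had RIN of 3.3 and 2.2, and the third had a RIN of 9.1.

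The slope of RIN differed between tissues for miR-484, with a range of 0.222 log2 units per RIN unit over the 3 tissues (limma, adjusted p = 0.0133). The time slope differed between RT and 4C by -0.0291 per hour for miR-103-3p (adjusted p = 7.55e-04), -0.0238 for miR-107-3p (0.00385) and -0.0217 for miR-191-5p (0.00496). The last of these was detected on 8 of 45 arrays.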

How the results depend on the processing

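Over the members' tests, 988 values were recomputed under other settings and 2700 without 1 array. Under other settings 709 kept direction and side of the threshold, 105 lost the call, 69 gained it, 64 values that were never called changed sign and 41 reversed a called direction. Without 1 array these were 2656, 17, 3, 24 and 0. No paired analysis was possible by replicate number because all arrays carry the number 1. By the study's methods the tissues at 1 temperature share an animal, and with storage temperature as a block no tissue call of a member changed, while with temperature and time as a block 1 did (miR-103-3p, liver minus heart, -0.463, adjusted p = 0.0785). The counts of called miRNAs were then 583 and 605 for brain against heart, 465 and 411 for liver against heart and 605 and 587 for brain against liver. Fits per tissue could be made with 1 array per time because the spread is pooled over times.

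Counts of called miRNAs that moved by over 1.5 times follow, and the cause was not tested except where fewer or more miRNAs or arrays were used. With no filter on detection they were 1425 with RIN within tissues, 933, 1221 and 707 in heart, liver and brain, 1277 for time at RT, 691 for the temperature difference, 489 for low-RIN against high-RIN liver, 1098 for brain against heart and 1244 for brain against liver. With Bonferroni adjustment they were 409, 142, 321, 72, 249, 52, 0, 358 and 392 in the same order, and 7 for the slope difference, 18 for time at 4C and 199 for liver against heart. At RIN over 6 they were 2 within tissues, 61, 68 and 50 by tissue and 119 for the slope difference. Without the 2 arrays of lowest RIN the heart count was 215, and without the liver arrays the brain count was 538. The slope difference gave 126 and 215 with percentile scaling over detected or all miRNAs, 168 with quantile normalization, 214 with normexp, 13 with the left-out heart array kept, 18 with the slide as a block, 84 without liver RT 48 h and 96 h and 117 with summed probes and percentile scaling. Time at 4C gave 155 with no scaling, 164 with normexp, 206 on log2 hours, and 167 and 162 with summed probes (no scaling, percentile scaling). The temperature difference gave 285 without liver RT 48 h and 96 h, and liver against heart 253 within the RT slides. Low-RIN against high-RIN liver gave 131 and 86 with percentile scaling over detected or all miRNAs, 96 with quantile normalization, 135 with summed probes and percentile scaling, 0 by limma with the slide as a block (173 at an unadjusted p below 0.05) and 0 by the exact test without liver RT 48 h and 96 h (254 unadjusted). The 0 with Bonferroni adjustment stands beside 335 at an unadjusted exact p below 0.05.

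Leaving out 1 array, the counts ran from 201 to 425 in heart (201 without heart RT 96 h), 83 to 362 in brain (83 without brain RT 96 h), 15 to 54 for the slope difference (15 without brain RT 96 h, 17 without heart RT 96 h), 62 to 140 for time at 4C (62 without brain 4C 96 h) and 28 to 333 for low-RIN against high-RIN liver (28 without liver 4C 1 h). SDs within tissues that moved were those of miR-423-5p with normexp (0.165) and of miR-484 with percentile scaling over all miRNAs (0.701), quantile normalization (0.707) and normexp (0.138).

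Reversed values not given above were these. At RIN over 6 the slope within tissues was -0.13 for miR-191-5p, -0.117 for miR-103-3p, -0.252 for miR-107-3p and -0.0211 for miR-484, and in liver -0.52, -0.278 and -0.472 for the first 3. With no scaling it was -0.029, -0.193 and -0.121 within tissues for miR-107-3p, miR-423-5p and miR-484, -0.181 for miR-423-5p in heart, and -0.00573, -0.194 and -0.246 for miR-107-3p, miR-423-5p and miR-484 in liver. With summed probes and no scaling these 7 were -0.029, -0.178, -0.115, -0.181, -0.00574, -0.166 and -0.239, and that of miR-423-5p in brain was -0.209. Without liver RT 48 h and 96 h miR-107-3p in liver was -0.0241. Slopes of time at RT with no scaling were 0.00693 for miR-423-5p and 0.00653 for miR-484 (0.00683 and 0.00355 with summed probes), and low-RIN minus high-RIN liver was 1.17 and 1.18 for miR-484. Tissue differences were 0.159, 0.587, 0.488 and, with summed probes, 0.159 for miR-103-3p and 0.67, 0.895, 0.811 and 0.669 for miR-107-3p (liver minus heart), -0.367 and -0.108 for miR-484 (brain minus heart), and -0.661 and -0.282 for miR-423-5p (brain minus liver).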
